A study of Mus musculus with 18 samples.

Results

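Small leucine-rich proteoglycans are secreted matrix proteins built on a short core of leucine-rich repeats. The 8 genes described here were taken by name: decorin (Dcn), biglycan (Bgn), asporin (Aspn), fibromodulin (Fmod), lumican (Lum), prolargin (Prelp), osteomodulin (Omd) and osteoglycin (Ogn). They are 8 of the 30583 genes with counts in the series, and all 8 passed the filter on low counts, as did 16311 genes in all. RNA was sequenced after poly(A) selection from left ventricular tissue of 12-week-old male C57BL/6JR mice operated under pentobarbital anaesthesia. In 5 groups the left anterior descending coronary artery was tied to cause an infarction, and tissue was taken 10 min or 1, 6, 24 or 72 h later. The sixth group, a single sham group for all times, had the suture passed but not tied. Each of the 6 groups held 3 mice, 1 library each.

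The family binds collagen and sets how fibrils thicken and space themselves. Class I members (decorin, biglycan) carry chondroitin or dermatan sulfate chains, asporin of the same class carries none, class II members (fibromodulin, lumican, prolargin, osteomodulin) can carry keratan sulfate, and osteoglycin belongs to class III. Decorin and biglycan also bind TGF-beta, and soluble biglycan released from matrix is a ligand of Toll-like receptors. In the heart the family is made mainly by fibroblasts and related stromal cells, and collagen-rich scar replaces dead muscle after an infarction.

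Libraries held 18.2 to 25.1 M (mega) counts. The labels name both myocardial tissue of the infarcted left ventricle and cardiomyocytes, but markers of several cell types were present in every library, so the values describe tissue. In such bulk samples, fewer cells of a type and less RNA per cell cannot be told apart. The summed level of 6 cardiomyocyte markers ran from 45161 to 49917 CPM (counts per M counts, scaled by TMM, a method that aligns libraries on the bulk of their genes) in sham and from 10786 to 14406 CPM at 72 h. Replicate 1 at 6 h stood apart, with 151 CPM for the atrial genes Sln, Myl7 and Myl4 together against at most 3.41 CPM in any other library. Replicate 3 at 24 h held the lowest level of 7 of the 8 members within its group. It had 652 CPM of neutrophil markers, against 152 and 35.1 CPM in the other libraries at 24 h. Replicate 3 at 6 h was likewise lowest in its group for 7 of the 8 members. It had the fewest neutrophil markers at that time, 96.6 CPM against 733 and 260 CPM. Most member changes, family sums and list counts are also given without 6 h replicate 1 or 24 h replicate 3, or library by library.

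The 8 genes lie in 4 places in the genome (GENCODE M21, GRCm38). Dcn (ENSMUSG00000019929, chr10:97479609-97518143) and Lum (ENSMUSG00000036446, chr10:97565128-97572703) are 47.0 kb apart on the same strand. Aspn (ENSMUSG00000021388, chr13:49544443-49567565), Omd (ENSMUSG00000048368, chr13:49582462-49592822) and Ogn (ENSMUSG00000021390, chr13:49608046-49624501) follow each other at gaps of 14.9 and 15.2 kb, all on the plus strand. Prelp (ENSMUSG00000041577, chr1:133910304-133921414, minus strand) and Fmod (ENSMUSG00000041559, chr1:134037254-134048277, plus strand) are 115.8 kb apart. Bgn (ENSMUSG00000031375) stands alone at chrX:73483602-73495933. Cenpp, on the opposite strand, spans the chromosome 13 members; it shares 7 exon bases with Aspn and none with Omd or Ogn, and was at most 3.12 CPM. An antisense gene, Gm15851, shares 350 bases (9.7%) of the Prelp exons, and since strand use in counting is not given in the sources used here, reads of the pair cannot be told apart.

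Promoter sequences of 6 of the 8 members were matched in RefSeq (GRCm38.p6). The 150 bases before the RefSeq start are printed 5′ to 3′ on the gene's strand for 3 members that rose at 72 h (Bgn, Aspn, Fmod) and for Prelp and Ogn, neighbours of Fmod and Aspn that were not called then. Capitals mark every match, on either strand, to 6 motifs searched: the TATA box TATAAA, the AP-1 site TGANTCA, the SP1 GC box GGGCGG, the TEAD site CATTCC, the SMAD element CAGAC and the NFAT core GGAAA.
Bgn, chrX:73483451-73483600, plus strand: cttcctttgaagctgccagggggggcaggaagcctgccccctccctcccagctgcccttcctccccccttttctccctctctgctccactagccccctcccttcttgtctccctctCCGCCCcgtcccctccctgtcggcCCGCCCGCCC
Aspn, chr13:49544293-49544442, plus strand: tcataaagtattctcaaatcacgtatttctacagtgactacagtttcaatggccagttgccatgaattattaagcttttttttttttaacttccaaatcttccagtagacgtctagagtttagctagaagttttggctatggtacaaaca
Fmod, chr1:134037104-134037253, plus strand: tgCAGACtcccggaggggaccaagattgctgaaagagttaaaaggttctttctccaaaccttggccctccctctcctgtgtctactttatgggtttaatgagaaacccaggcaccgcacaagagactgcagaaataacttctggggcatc
Prelp, chr1:133921402-133921551, minus strand: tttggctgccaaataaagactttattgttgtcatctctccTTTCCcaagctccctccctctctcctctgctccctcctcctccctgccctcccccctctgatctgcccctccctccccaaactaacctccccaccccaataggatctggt
Ogn, chr13:49607865-49608014, plus strand: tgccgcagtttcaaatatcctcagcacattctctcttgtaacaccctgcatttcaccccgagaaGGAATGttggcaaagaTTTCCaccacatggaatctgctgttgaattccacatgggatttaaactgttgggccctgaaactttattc

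The Bgn window held 3 GC boxes, starting 34, 10 and 6 bases before the RefSeq start, the latter pair overlapping; 28.6% of 32851 promoter windows of the same length held at least 1. The Fmod window held 1 SMAD element (27.7% of windows did), the Ogn window 1 TEAD site (7.59%) and 1 NFAT core (37.6%), and the Prelp window 1 NFAT core. No window of these 5, nor that of Omd, held a TATA box (7.57%) or an AP-1 site (4.24%) in these letters, and those of Aspn and Omd held none of the 6 motifs. The windows also differed in base composition: 70% of the Bgn bases were G or C against 33.3% for Aspn, with a median of 54% over all promoters. A match is a run of letters only, and binding was not measured.

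At 10 min and 1 h after ligation none of the 8 genes was called, that is, none had an edgeR quasi-likelihood p, adjusted by Benjamini-Hochberg over all genes tested, under 0.05. Few genes of any kind were called at these times, 0.0736% of those tested at 10 min and 0.294% at 1 h. Of the members, 1 (Fmod) had an unadjusted edgeR p under 0.05 at each time, as did 1144 of all genes tested at 10 min and 899 at 1 h. DESeq2 and limma called none either. The first calls came at 6 h, when 4 of 8 members were lower than sham (12.2% of all genes tested were called lower) and none higher (16.3%). At 24 h 6 were lower (20.2%) and 1 was higher (23.7%), and at 72 h 5 were higher (34.2%) and none lower (32.2%). The median log2 fold change of the 8 was -0.83 at 6 h, -1.03 at 24 h and 1.22 at 72 h, beside -0.01, 0.01 and 0.03 over all genes tested. Without the 6 h replicate 1, 3 members were lower at 6 h, beside 1202 of all 16738 genes tested. Without the 24 h replicate 3, 5 were lower (2371 of 16720 genes) and 1 higher (3095) at 24 h. The medians of the members were then -0.85 and -0.88. The F test over all times called 8 of 8 members, and 78.4% of all genes.

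**Figure D1:**
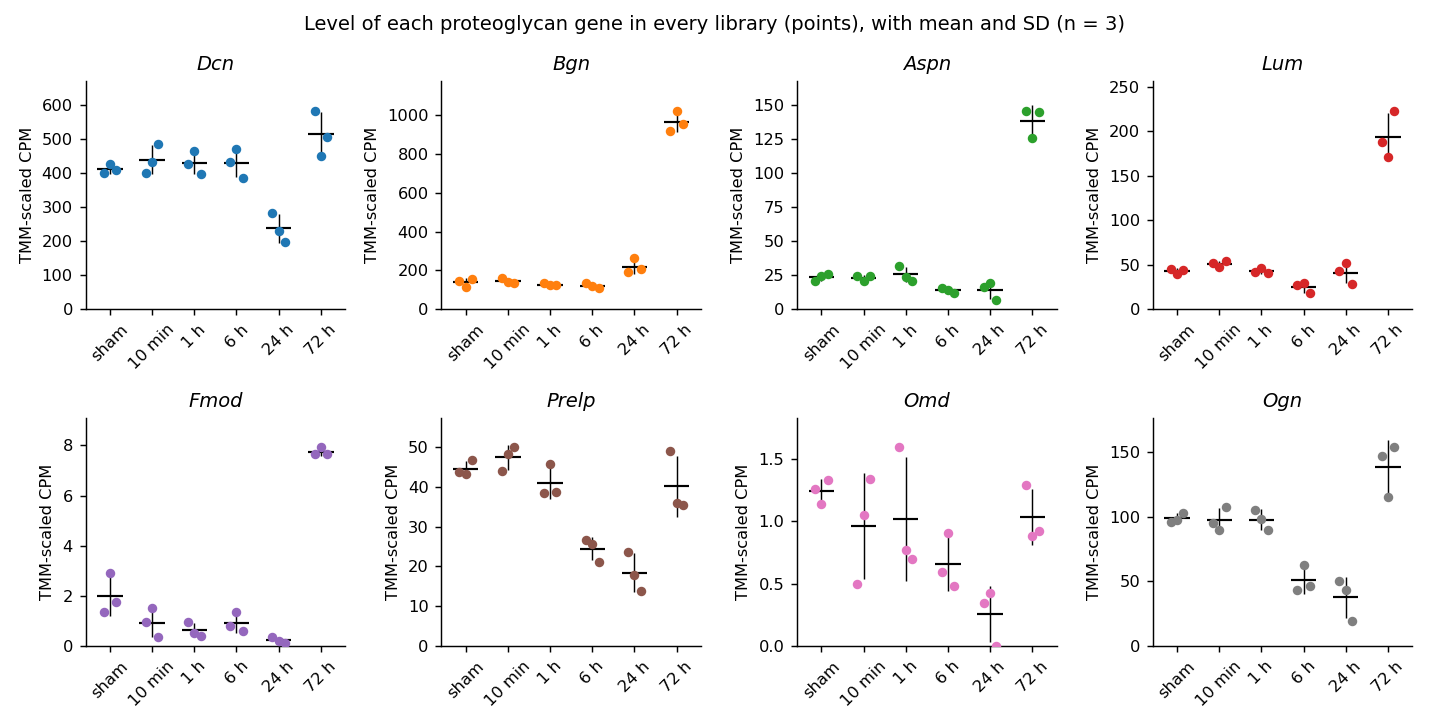
Level of each of the 8 genes in every library, in TMM-scaled CPM on axes that start at 0 and differ between panels. Points are single mice, horizontal lines group means and vertical lines SD (n = 3). Bgn, Aspn, Lum, Fmod and Ogn are highest at 72 h, where their points lie above all 15 other libraries, though Ogn was not called against sham. Prelp and Omd at 72 h lie near their sham levels.

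Among class I members, biglycan showed the largest fold change against sham at 72 h of the 8 genes. Bgn, whose product binds collagen and TGF-beta, read 143, 116 and 158 CPM in the 3 sham libraries, 134, 119 and 112 at 6 h, 190.1, 265 and 205 at 24 h, and 919, 1024 and 955 at 72 h. Every 24 h library was above every sham library, and every 72 h library was far above the highest 24 h one. The log2 fold change against sham was 0.66 ± 0.13 (SE) at 24 h (edgeR adjusted p = 0.000645) and 2.80 ± 0.14 at 72 h (edgeR adjusted p = 1.53e-11), a 6.95-fold increase. Without replicate 3 at 24 h the 24 h value was 0.71 (edgeR adjusted p = 0.000712). At 10 min, 1 h and 6 h its log2 fold changes lay between -0.20 and 0.06.

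Decorin, the collagen-spacing proteoglycan that gave the most counts in sham, moved differently. Dcn read 400.1, 426 and 410 CPM in sham, 434, 472 and 387 at 6 h, 283, 231 and 198 at 24 h, and 583, 450.3 and 507 at 72 h. The 24 h libraries were below all others, and the 72 h libraries were above all sham libraries. Its log2 fold change was -0.79 ± 0.13 at 24 h (edgeR adjusted p = 0.000132) and 0.32 ± 0.13 at 72 h (edgeR adjusted p = 0.0361). The small 72 h increase did not pass the threshold in 5 of 6 fits that left out 1 library: edgeR adjusted p was 0.103, 0.0625 and 0.084 without sham replicates 1, 2 and 3, and 0.17 and 0.0624 without 72 h replicates 1 and 3. With libraries scaled by their totals the 72 h value was 0.90 (edgeR adjusted p = 3.55e-06), a scaling that moved the median of all genes to 0.61. Without replicate 3 at 24 h the fall at 24 h was -0.68 (edgeR adjusted p = 0.000551).

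Asporin, which can bind TGF-beta and collagen, read 20.7, 24.2 and 26.0 CPM in sham, 15.7, 14.1 and 12.0 at 6 h, 16.5, 19.5 and 6.81 at 24 h, and 146, 126 and 145 at 72 h. All 6 libraries at 6 and 24 h were below all sham libraries, and the 72 h libraries were the highest by a wide gap. Its log2 fold change at 72 h was 2.55 ± 0.26 (edgeR adjusted p = 5.31e-07), a 5.87-fold increase. The earlier falls were near the threshold, with -0.76 ± 0.27 at 6 h (edgeR adjusted p = 0.0442) and -0.72 ± 0.26 at 24 h (edgeR adjusted p = 0.0384). Leaving out any 1 of the 6 libraries ended the 6 h call, with adjusted p from 0.06 (without sham replicate 1) to 0.127 (without 6 h replicate 3), and 0.072 without the atrial-rich replicate 1, and so did testing with no filter on low counts (0.121). The 24 h call ended without sham replicate 2 (0.0857), without sham replicate 3 (0.111) and without 24 h replicate 3, where the log2 fold change was -0.39 (edgeR adjusted p = 0.0674). It also ended with library totals (0.139), with no filter (0.116), in both limma fits (0.0702 and 0.0644) and when only the 6 libraries of the pair were fitted (0.139).

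Among class II members, lumican and fibromodulin rose at 72 h, and prolargin and osteomodulin were not called. Lum, which regulates collagen fibril assembly, read 45.1, 39.2 and 44.5 CPM in sham, 27.3, 29.6 and 17.9 at 6 h, 43.0, 51.7 and 28.7 at 24 h, and 188, 171 and 223 at 72 h. The 6 h libraries were below all sham libraries, those at 24 h straddled them, and those at 72 h were all above. Its log2 fold change was -0.78 ± 0.19 at 6 h (edgeR adjusted p = 0.0053), -0.06 ± 0.18 at 24 h (edgeR adjusted p = 0.817) and 2.18 ± 0.19 at 72 h (edgeR adjusted p = 2.82e-08). Without the atrial-rich 6 h library the 6 h value was -0.85 (edgeR adjusted p = 0.0133).

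Fmod, another regulator of collagen cross-linking and fibril growth, was a rare transcript with 27 to 56 counts per sham library. It read 1.36, 2.90 and 1.73 CPM in sham, 0.345, 0.212 and 0.103 at 24 h (2 to 8 counts), and 7.67, 7.92 and 7.64 at 72 h (240 to 260 counts). The 24 h libraries were the lowest of the series for this gene apart from overlap with 1 library at 10 min, and the 72 h libraries were close together and above all others. Its log2 fold change was -3.12 ± 0.51 at 24 h (edgeR adjusted p = 0.000127) and 1.95 ± 0.37 at 72 h (edgeR adjusted p = 0.000124). At 10 min, 1 h and 6 h it was -1.06 ± 0.42, -1.61 ± 0.45 and -1.13 ± 0.42, with edgeR adjusted p of 0.604, 0.291 and 0.0546. The 2 counts of 24 h replicate 3 lie under a floor of 3 counts, so that library alone gives no level. Without replicate 3 at 24 h the 24 h value was -2.84 (edgeR adjusted p = 0.00062).

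Prelp, whose product anchors basement membranes to connective tissue, read 43.8, 43.1 and 46.8 CPM in sham, 26.6, 25.6 and 21.2 at 6 h, 23.6, 17.9 and 13.7 at 24 h, and 48.9, 36.0 and 35.3 at 72 h. The libraries at 6 and 24 h were all below those of sham, and at 72 h 1 library lay above the sham range and 2 below. The log2 fold change was -0.87 ± 0.16 at 6 h (edgeR adjusted p = 0.000655) and -1.27 ± 0.16 at 24 h (edgeR adjusted p = 1.29e-05). At 72 h it was -0.15 ± 0.15 (edgeR adjusted p = 0.394) and turned to 0.43 when libraries were scaled by their totals alone (edgeR adjusted p = 0.0146), a scaling that moved the median of all genes to 0.61. Without the 6 h replicate 1 and the 24 h replicate 3 the earlier values were -0.93 (edgeR adjusted p = 0.002) and -1.10 (edgeR adjusted p = 1.97e-05).

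Omd, best known from mineralising tissue, was as rare as Fmod. It read 1.26, 1.14 and 1.33 CPM in sham (22 to 30 counts), 0.345, 0.424 and 0 at 24 h (0 to 12 counts), and 1.29, 0.883 and 0.923 at 72 h (29 to 41 counts). The 24 h libraries were below all others, and those at 72 h overlapped sham. The log2 fold change was -2.16 ± 0.54 at 24 h (edgeR adjusted p = 0.00379), or -1.67 without the library at 0 (edgeR adjusted p = 0.0086), and -0.27 ± 0.45 at 72 h (edgeR adjusted p = 0.614), 0.31 with library totals. The count of 0 lies under the floor of 3 counts, so that library alone gives no level.

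Osteoglycin, the class III member and a regulator of fibril assembly, read 96.1, 97.6 and 103 CPM in sham, 43.6, 62.9 and 46.3 at 6 h, 50.1, 43.4 and 19.4 at 24 h, and 147, 116 and 154 at 72 h. Both middle times were below all sham libraries and the 72 h libraries were above them. Its log2 fold change was -0.96 ± 0.24 at 6 h (edgeR adjusted p = 0.00844) and -1.39 ± 0.24 at 24 h (edgeR adjusted p = 0.000407). At 72 h it was 0.49 ± 0.24 (edgeR adjusted p = 0.0815), and it passed the threshold with library totals (1.08, adjusted p = 0.00127) and with only the 6 libraries of the pair in the fit (0.50, adjusted p = 0.000601). It also passed when genes under 10 counts in any library were dropped (0.55, edgeR adjusted p = 0.0459) and in limma on log2(FPKM + 1) and log2(FPKM + 0.1) (1.04 and 1.06, limma adjusted p = 0.00106 and 0.00129). Library totals moved the median of all genes at 72 h to 0.61, and FPKM values are scaled by library totals too. Without the atrial-rich 6 h library and the 24 h replicate 3 the earlier values were -0.86 (edgeR adjusted p = 0.0457) and -1.08 (edgeR adjusted p = 2.41e-05).

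**Figure D2:**
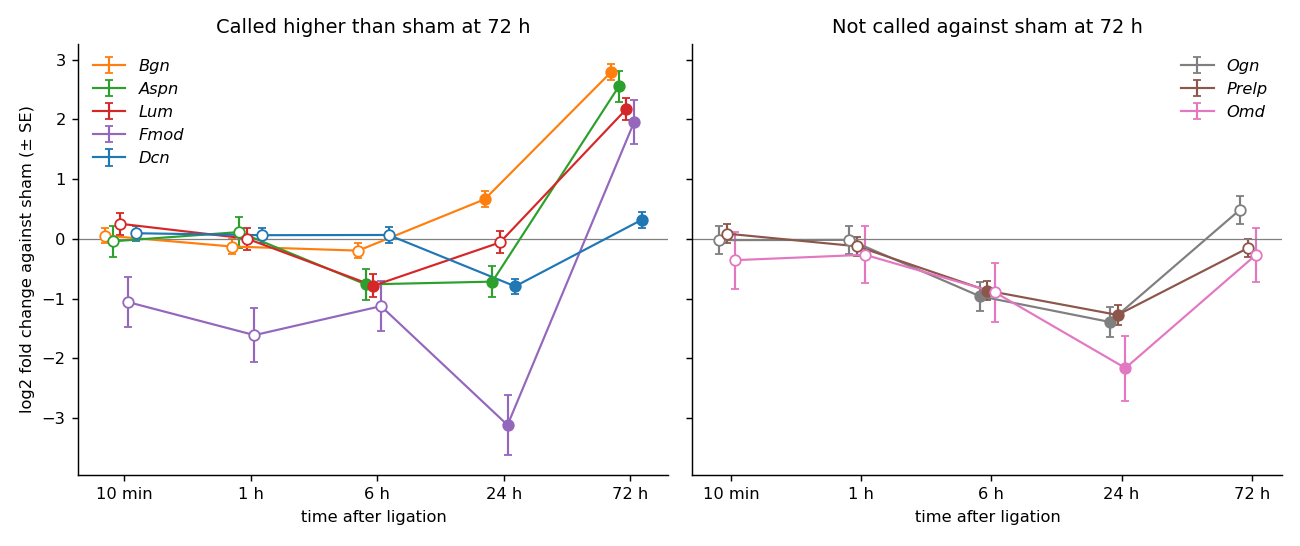
Log2 fold change of each gene against sham at 5 times after ligation, from the edgeR fit, with SE bars; filled points passed adjusted p under 0.05 and open points did not. The left panel holds the 5 genes called higher at 72 h and the right panel the 3 that were not, and all but Bgn and Lum are lower than sham and called at 24 h.

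Consecutive times were also compared. Between 10 min and 1 h no member was called (0.307% of all genes tested were), the smallest unadjusted p being 0.18 for Bgn. From 1 h to 6 h Aspn, Lum, Prelp and Ogn fell (4 of 8, beside 10.0% of all genes), with log2 differences of -0.88, -0.79, -0.74 and -0.94. Without the atrial-rich 6 h replicate 1 those of Aspn, Lum and Prelp were -0.97, -0.86 and -0.81 (edgeR adjusted p = 0.0498, 0.0156 and 0.00687). The Ogn call ended without the atrial-rich 6 h replicate 1 (-0.84, edgeR adjusted p = 0.0549), and the Aspn call without 1 h replicate 1 (0.119), 6 h replicate 2 (0.0582) or 6 h replicate 3 (0.0887), or with no filter on low counts (0.0841).

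From 6 h to 24 h Bgn and Lum rose by 0.86 ± 0.13 and 0.72 ± 0.19 on the log2 scale (2 of 8, beside 14.2% of all genes), and Dcn and Fmod fell, with log2 differences of -0.86 and -1.99 (2 of 8, beside 13.7%). The pair on chromosome 10, Lum and Dcn, thus moved in opposite directions over this interval. Without the 6 h replicate 1 the 4 differences were 0.94 (Bgn), 0.79 (Lum), -0.85 (Dcn) and -2.09 (Fmod), and without the 24 h replicate 3 they were 0.91, 0.93, -0.74 and -1.72, with edgeR adjusted p of at most 0.0415. The Lum rise did not pass without 24 h replicate 2 (0.52, edgeR adjusted p = 0.0524), nor the Fmod fall without 6 h replicate 2 (-1.56, edgeR adjusted p = 0.0753). With only the 6 libraries of the pair in the fit neither passed (0.117 for Lum, 0.0567 for Fmod), and in limma on log2(FPKM + 1) Fmod did not (0.12). From 24 h to 72 h all 8 members rose (24.4% of all genes tested did). Their log2 differences were 5.07 for Fmod, 3.27 for Aspn, 2.24 for Lum, 2.13 for Bgn, 1.89 for Omd, 1.88 for Ogn, 1.12 for Prelp and 1.11 for Dcn, with edgeR adjusted p from 9.79e-10 (Bgn) to 0.00663 (Omd). All 8 remained called without 24 h replicate 3, the least change then being 0.94 (Prelp). The values for Fmod and Omd were then 4.79 and 1.39. Their 24 h levels rest on 2 to 8 and 0 to 12 counts per library, so the sizes of their rises are imprecise.

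The make-up of the family changed with time. Levels were divided by exon length to compare genes, and the sum over the 8 members was 173 ± 5.78 CPM per kb in sham (SD, n = 3), 137 ± 14.8 at 6 h, 119.6 ± 22.5 at 24 h and 453 ± 23.1 at 72 h. Dcn made up 40.8% ± 2.01 of that sum in sham, 53.9% ± 0.637 at 6 h, 34.3% ± 4.23 at 24 h and 19.4% ± 1.89 at 72 h. Bgn went from 13.1% ± 1.72 in sham to 30.7% ± 6.20 at 24 h and 35.1% ± 3.74 at 72 h. By library at 24 h, the sum was 130.5, 135 and 93.7 CPM per kb, the share of Dcn 37.1%, 29.4% and 36.3% and that of Bgn 23.9%, 32.3% and 36.0%, so that replicate 3 was low in the sum but not in the share of Dcn or Bgn. Without the 6 h replicate 1 the 6 h sum was 136 CPM per kb and the Dcn share 54.1%. Ogn went from 22.3% ± 0.215 to 11.9% ± 1.19 at 72 h, Lum from 10.1% ± 0.712 to 17.5% ± 1.71, Aspn from 5.80% ± 0.541 to 13.0% ± 0.444 and Prelp from 7.13% ± 0.0809 to 2.45% ± 0.429. None of these ranges overlapped between sham and 72 h. Fmod and Omd stayed under 0.6% each in every library.

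**Figure D3:**
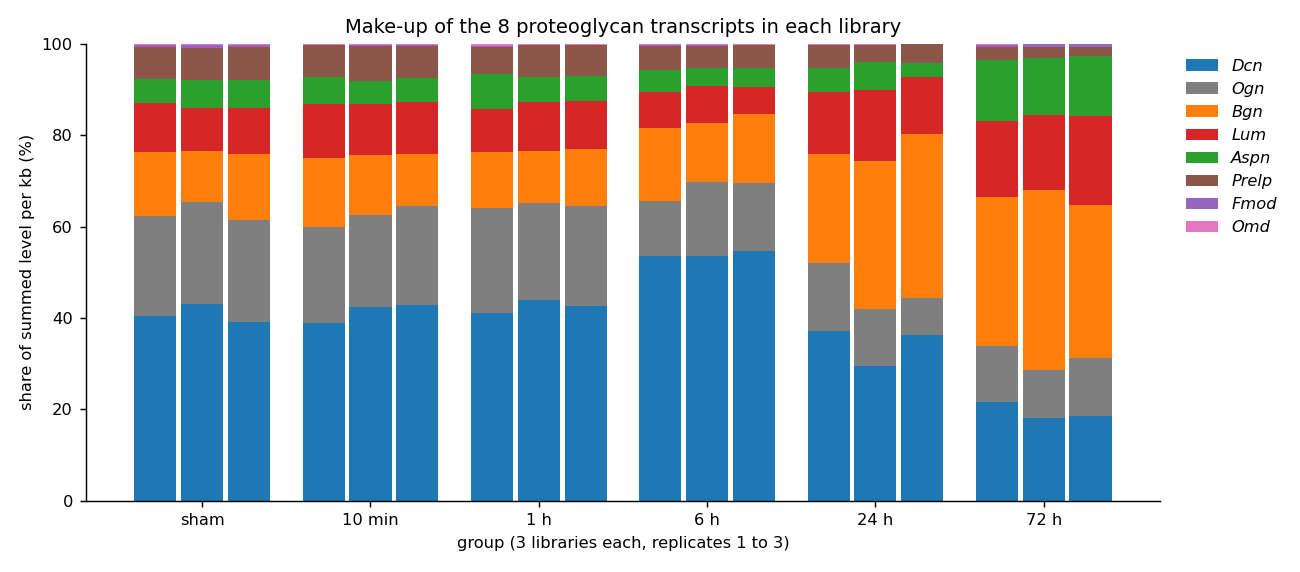
Share of each gene in the summed length-corrected level of the 8 members, as stacked bars that reach 100%, 1 bar per library in 6 groups of 3. Dcn holds the largest part in sham (39.1% to 43.0%) and Bgn at 72 h (32.5% to 39.4%).

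The order of levels per kb was therefore different at the ends of the series. In sham it ran Dcn, Ogn, Bgn, Lum, Prelp, Aspn, Fmod and Omd, and only Fmod and Omd overlapped among neighbours. At 24 h Dcn and Bgn overlapped (40.7 ± 7.30 and 36.1 ± 6.51 CPM per kb), as did Lum with Ogn, Ogn with Aspn, Aspn with Prelp, and Omd with Fmod. At 72 h Bgn led with 158 ± 8.79 CPM per kb, followed by Dcn (88.0 ± 11.4) and Lum (79.3 ± 10.8), which overlapped, then Aspn and Ogn, which overlapped, Prelp, Fmod and Omd.

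Ratios between genes of the same chromosome cluster differed between groups within libraries. These pairs, and the pair Bgn and Dcn, were chosen after their values were seen and are described without a test; a ratio within a library needs no scaling between libraries. The ratio of Lum to Dcn per kb was 0.269, 0.219 and 0.259 in sham, 0.150, 0.150 and 0.110 at 6 h, 0.362, 0.533 and 0.345 at 24 h, and 0.768, 0.906 and 1.05 at 72 h. It was lower than sham in all 3 libraries at 6 h and higher in all 6 at 24 and 72 h. The ratio of Aspn to Ogn, which have Omd between them, was 0.260 ± 0.0219 in sham and 1.10 ± 0.0805 at 72 h, and that of Fmod to Prelp 0.0494 ± 0.0212 and 0.216 ± 0.0388. Bgn to Dcn went from 0.324 ± 0.0568 in sham to 0.911 ± 0.238 at 24 h (at least 0.643 in each library) and 1.83 ± 0.336 at 72 h. The rare Omd went down against both its neighbours, from 0.0144 ± 0.000891 in sham to 0.00852 ± 0.00159 at 72 h relative to Ogn, and from 0.0557 ± 0.0075 to 0.00776 ± 0.00135 relative to Aspn, with no overlap between sham and 72 h in either. Relative to Ogn, Omd was as low as at 72 h in some earlier libraries. The ratio was 0.00599 in 10 min replicate 1, and 0.00896 and 0.00888 in 1 h replicates 2 and 3. Those libraries held 8, 13 and 12 Omd counts. Ecm2, a related gene 11.7 kb before Aspn, also went down relative to Aspn, from 0.527 ± 0.0591 in sham to 0.0825 ± 0.00562 at 72 h.

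**Figure D4:**
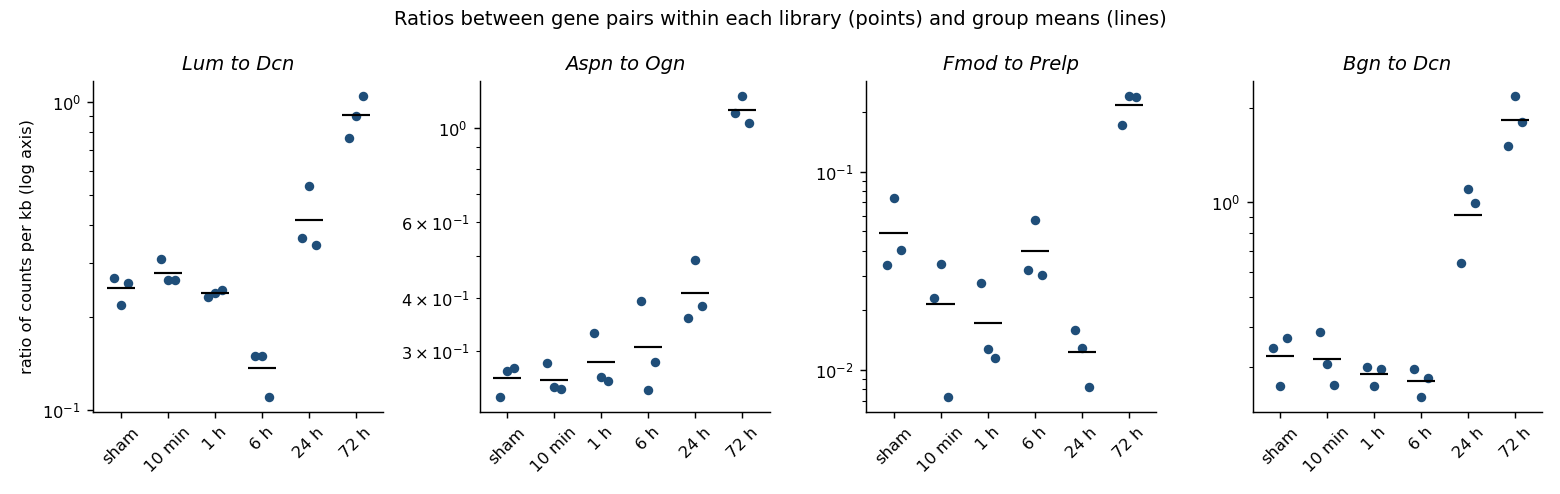
Ratio of counts per kb between 4 pairs of genes within each library, on log axes that differ between panels; points are single mice and lines group means. In all 4 panels the 72 h libraries lie above every sham library, and for Lum to Dcn the 6 h libraries lie below them.

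Of 10 other family genes, 6 passed the filter; Kera, Epyc, Optc and Chad did not, with at most 16 counts in any library. At 72 h Tsku and Podnl1 were called higher, Podn and Nyx lower, and Ecm2 and Chadl not called, beside 34.2% of all genes higher and 32.2% lower. Tsku, a secreted modulator of several growth factor pathways, had risen already at 6 h (0.97) and 24 h (1.61) and reached 2.76 ± 0.21 at 72 h (edgeR adjusted p = 3.56e-09). Podnl1 went from 0 to 4 counts per sham library to 30 to 66 at 72 h (edgeR adjusted p = 9.96e-05). From 10 min to 6 h it had at most 2 counts in any library, and at 24 h at most 1. It thus passed the filter on low counts only through its 72 h libraries, so its call there carries little weight. Podn fell by 1.18 on the log2 scale at 72 h (edgeR adjusted p = 9.17e-06). Ecm2 and Nyx are named here after their values were seen: the log2 fold change of Ecm2 was -1.21 at 6 h, -1.66 at 24 h and -0.11 at 72 h. That of Nyx was -1.44 at 72 h.

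Genes that build, bind or cut these proteins were read in the same fit. Of all genes tested, 16.3% were called higher and 12.2% lower at 6 h, 23.7% and 20.2% at 24 h, and 34.2% and 32.2% at 72 h. Of 10 fibrillar collagens tested, 4 fell and none rose at 6 h. At 24 h 7 rose and none fell, and at 72 h 9 rose and none fell. Their median log2 fold change at 72 h was 4.56 (range 0.39 to 9.30), against 1.22 for the 8 proteoglycans. Whether the highest of them passed the filter only through its 72 h libraries is not shown here, though it enters the median. Col1a1, the main chain of scar collagen, rose from 74.4 ± 12.9 to 3549 ± 698 CPM (log2 5.58 ± 0.26), and the fibril-nucleating Col5a1 and Col5a2 rose by 3.78 ± 0.18 and 4.42 ± 0.19. Of 22 enzymes of the glycosaminoglycan linker and of chondroitin or dermatan sulfate, 18 rose and 2 fell at 72 h (median 1.13). Dse, which epimerises chondroitin to dermatan sulfate, rose by 2.94 ± 0.17, and the chain-polymerising factors Chpf and Chpf2 by 1.71 ± 0.10 and 1.56 ± 0.16. Of 6 keratan sulfate enzymes 4 rose and 1 fell (median 0.97). B3gnt7, a chain-extending enzyme, went from 0.0489 ± 0.00397 to 2.27 ± 0.402 CPM. Its sham level lies under the floor of 3 counts per library, so neither that level nor its SD is a measured baseline. The call of B3gnt7, 1 of the 4 in this list, thus carries little weight. The sulfotransferase Chst2 rose by 2.14 ± 0.19 and the galactosyltransferase B4galt1 by 0.79 ± 0.10.

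Of 13 proteases that can cleave family members, 10 rose and 2 fell at 72 h (median 2.34), beside 34.2% of all genes higher and 32.2% lower. Mmp12, a macrophage elastase, rose by 6.85 ± 0.45, the membrane-bound Mmp14 by 4.66 ± 0.28, and Bmp1, which trims the propeptide of biglycan, by 2.10 ± 0.15. Of 11 receptors that bind soluble members, 9 rose and 1 fell (median 1.97), among them the purinergic P2rx4 (1.82 ± 0.11) and P2rx7 (2.24 ± 0.17) and the endocytic receptor Lrp1 (1.72 ± 0.13). Of 6 TGF-beta ligands and receptors 5 rose and 1 fell (median 1.29), with Tgfb3 at 2.10 ± 0.18, Tgfbr1 at 1.92 ± 0.15 and Tgfbr2 at 1.10 ± 0.10. At 6 h, beside 16.3% of all genes higher and 12.2% lower, 7 of 11 receptors and 3 of 6 keratan sulfate enzymes were higher and none lower. The chondroitin or dermatan sulfate list had 6 of 22 higher and 2 lower, the proteases 4 of 13 and 3, and the TGF-beta genes 4 of 6 and 1. Without the 6 h replicate 1, 1724 of all 16738 genes tested were higher and 1202 lower, in place of 2653 and 1986 of 16311. The counts were then 5 and 0 for the receptors, 3 and 0 for the keratan sulfate enzymes, 0 and 1 for the chondroitin or dermatan sulfate list, 3 and 2 for the proteases and 3 and 1 for the TGF-beta genes, and 3 collagens were lower. At 24 h the collagens again had 7 higher and none lower without replicate 3, beside 3095 higher and 2371 lower of all 16720 genes tested. Each rise or fall here passed edgeR adjusted p under 0.05.

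**Figure D5:**
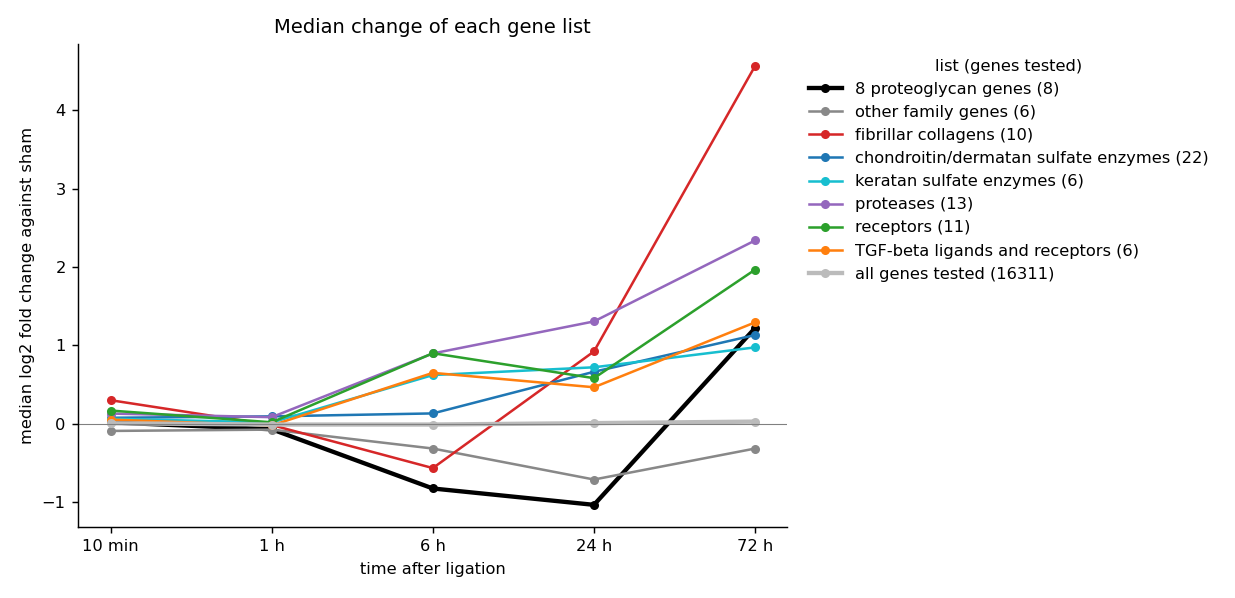
Median log2 fold change against sham of the 8 proteoglycan genes, of 7 lists of related genes and of all genes tested, at 5 times after ligation; the number of genes tested stands in the key. The 8 genes are at -0.83 and -1.03 at 6 and 24 h and at 1.22 at 72 h, where the fibrillar collagens are at 4.56.

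Markers of stromal and immune cells moved over the same times, and their part in the results above was not tested. The marker calls stand beside 16.3% of all genes higher and 12.2% lower at 6 h, 23.7% and 20.2% at 24 h, and 34.2% and 32.2% at 72 h. At 6 h, when Aspn, Lum, Prelp and Ogn were lower, the 5 neutrophil markers summed to 733, 260 and 96.6 CPM against at most 3.58 CPM in sham, and 5 of 5 were called higher, with or without replicate 1. At 24 h they summed to 152, 35.1 and 652 CPM, again 5 of 5 higher with or without replicate 3, and at 72 h to 45.1 to 55.7 CPM (4 of 5 higher). The fibroblast markers summed to 1640 to 2002 CPM at 6 h, with 2 of 6 higher and none lower (1 and 1 without replicate 1). The 6 fibroblast markers summed to 1587 to 1842 CPM in sham, 846 to 1093 at 24 h and 1194 to 1522 at 72 h, sums in which Gsn weighs most; at 72 h 5 of the 6 were called higher and Gsn lower, and at 24 h 1 was higher and 3 lower, counts that were equal without replicate 3. The 6 myofibroblast markers (among them Postn and Acta2) summed to 125 to 179.7 CPM in sham and 193 to 273 at 24 h. Of these, 3 were called higher and 1 lower at 24 h, with or without replicate 3. At 72 h they summed to 2251 to 2470 CPM, with 6 of 6 called higher. Cthrc1, among the 6, averaged 0.125 CPM in sham, near 0. The 6 macrophage markers went from 289 to 333 CPM in sham to 3402 to 4523 at 72 h, again 6 of 6 higher. The 6 mural markers summed to 1285 to 1314 CPM in sham and 529.8 to 632 at 72 h (5 of 6 lower). The 5 epicardial or mesothelial markers summed to 11.6 to 20.7 CPM in sham and to 57.9, 17.5 and 20.4 CPM at 72 h, where 3 of 5 were called higher and replicate 1 was well above the rest. The 5 valve or tendon markers summed to 13.2 to 17.6 CPM in sham, 19.6 to 22.6 at 24 h and 33.4 to 35.0 at 72 h. Of the 3 that were tested, 2 were higher and 1 lower at both times: mean levels in sham, 24 h and 72 h libraries were 1.65, 3.92 and 19.9 CPM for Sox9, 5.18, 14.4 and 11.6 CPM for Scx, and 8.50, 2.46 and 2.60 CPM for Cytl1. The other two, Tnmd and Hapln1, were at or near 0 in all libraries (at most 0.213 and 0.084 CPM).

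By Pearson r of log2 CPM over 18 libraries, the genes most like each member were sought among 11675 genes averaging 50 counts or more. The points share the same mice and time course, and the 72 h group weighs heavily, so the values describe likeness only. Bgn was most like Fstl1 and Gusb (0.99 each), Aspn most like Gxylt2 (0.98) and Fndc1 (0.97), and Lum most like Col14a1 (0.98) and Mxra8 (0.97). Ogn went with Scrn1 and Islr (0.96 each) and Prelp with Ecm2 (0.96) and Col6a6 (0.94). Dcn went with Smpdl3a (0.95) and Itm2b (0.93), Omd with Txndc16 (0.93) and Asap3 (0.90), and Fmod with Heg1 (0.91) and Sptssa (0.90). Such likeness is of shape and not of size. From 24 to 72 h Heg1 went from a mean of 130 to 215 CPM, and Fmod from 0.220 to 7.74 CPM. Among the members themselves r was highest for Aspn with Lum (0.95) and lowest for Bgn with Prelp (0.03).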

How the data were processed

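Poly(A)-selected RNA from 18 mice, 3 in each of 6 groups, was sequenced. Per the submitters' processing notes, the authors used cutadapt 1.18, HISAT2 2.1.0, featureCounts and mm10; strand use is not given in the sources used here. The authors deposited read counts per gene, which were used for every level and main test. The deposited FPKM values are those counts divided by gene length and library total, and were used in alternatives only; the FPKM columns of 6 h replicates 2 and 3 hold each other's counts. Gene lengths are GENCODE M21 exon lengths, equal to those behind the FPKM values for all 8 members.

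In R 4.3.3, edgeR 4.0.16 (filterByExpr, TMM, robust quasi-likelihood fit over all 18 libraries with 1 mean per group, two-sided) tested 16311 genes after 14272 were removed. P-values were adjusted by Benjamini-Hochberg over all genes tested, and genes under 0.05 were called. SE is the log2 fold change divided by the square root of F. The test was checked on simulated counts. Alternatives were other scalings and filters, DESeq2 1.42.0, limma 3.58.1 on log2(FPKM + 1) and log2(FPKM + 0.1), a replicate block, only the 6 libraries compared, and leaving out each library. Counts come from PCR-amplified libraries, and the range of 18.2 to 25.1 M counts limits precision for the rare Fmod and Omd.

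All 8 members are named; from each list of related genes the 3 with the smallest adjusted p at 72 h against sham; and for each member the 2 genes most correlated with it. Members and lists were chosen with earlier results of these data known.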

Additional observations from a re-analysis of the deposited data

How the results depend on the processing

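Of the called changes of single members, those of Bgn, Prelp and Omd, and all those from 24 h to 72 h, passed the threshold under every alternative in which the gene was tested; Fmod and Omd were removed by a filter of at least 10 counts in every library. From 6 h to 24 h, 2 members in place of 4 passed in a fit restricted to the 6 libraries of that pair. Leaving out 1 library gave 3 to 4 members at 6 h, 6 to 7 at 24 h, 4 to 5 at 72 h, and 3 to 5 from 6 h to 24 h. List counts, sums and shares without the 6 h replicate 1 or the 24 h replicate 3 were added after seeing the data. At 72 h, 7 members in place of 5 were called with library totals and with both limma fits. With library totals 11854 of all 16311 genes tested were called, in place of 10831. The limma fits use FPKM, which is scaled by library total as well, so they are not a separate check of the scaling. Directions at 72 h reversed for Prelp with library totals (0.43), log2(FPKM + 1) (0.39) and log2(FPKM + 0.1) (0.41), and for Omd (0.31, 0.11 and 0.25); under library totals the all-gene median shifted to -0.12 (6 h), 0.20 (24 h) and 0.61 (72 h).

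Shares computed without dividing by length were, in sham, 53.9% for Dcn, 18.2% for Bgn, 3.09% for Aspn, 5.62% for Lum, 5.83% for Prelp, 0.163% for Omd and 13.0% for Ogn. At 72 h they were 25.6% for Dcn, 48.4% for Bgn, 6.93% for Aspn, 0.387% for Fmod, 9.69% for Lum, 2.0% for Prelp, 0.0515% for Omd and 6.93% for Ogn. They differ by construction, since Dcn and Bgn have the longest exons.

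Replicate numbers are shared between groups. Deviations of same-numbered libraries from their group means had r from -0.26 to 0.25 over 45 pairs (median 0.035, over 0.1 in 4). Differently numbered libraries had a median of -0.013 over 90 pairs (over 0.1 in 9). With 3 libraries per group these values cannot show whether same-numbered libraries were handled together, and the main fit used no pairing. With a replicate block, 5 members in place of 4 were called at 6 h, and 7 and 5 at 24 and 72 h as without it.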
